A study of Mus musculus with 15 samples.

Results

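Purine signalling genes of microglia were read in mouse corpus callosum after 2 kinds of focal injury. The set was fixed by gene symbol: P2ry12, P2ry13, P2ry14 and P2ry6 (metabotropic P2Y receptors), P2rx4 and P2rx7 (ligand-gated P2X channels), Gpr34 (a lysophosphatidylserine receptor related in sequence to P2Y receptors), Entpd1 and Nt5e (the ectonucleotidases CD39 and CD73) and Adora3 (an adenosine receptor). All 10 were among the 33321 genes of the deposited count table, and all 10 passed the filter on low counts that left 16795 genes for testing. The study sequenced RNA from 15 libraries of bulk mouse tissue, 3 in each of 5 groups. Sham_Ipsil was the site of a saline injection in sham-operated mice, with no day of collection given. LPC_Ipsil was tissue injected with lysophosphatidylcholine (LPC), a lipid that strips myelin, and LPC_Contra the corresponding tissue of the other hemisphere. LNIO_Ipsil was tissue injected with L-NIO, an inhibitor of nitric oxide synthase that constricts vessels and was used as a model of white matter stroke, and LNIO_Contra its other side. The tissue of these 4 groups was collected on day 4. The sources used here give no strain, sex, age or pooling, and no uninjected mouse was a group, so each injured site was compared with a site that had itself been injected. Whether each library was a mouse of its own is not labelled, nor whether both sides of a model came from the same mice. The p-values therefore cover only the spread among these libraries, which could be technical.

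Injured cells release ATP, ADP, UTP and UDP, and microglia read these nucleotides with surface receptors. ADP acting on P2RY12 draws microglial processes to a lesion, P2RY13 shares that ligand, P2RY6 answers UDP and promotes uptake of debris, P2RY14 answers UDP-sugars, and the channels P2RX4 and P2RX7 open on ATP, P2RX7 at high concentrations with activation of the NLRP3 inflammasome. CD39 degrades ATP and ADP to AMP, CD73 turns AMP into adenosine, and adenosine acts on receptors such as ADORA3. In the healthy brain P2ry12, P2ry13, Gpr34 and Entpd1 are widely used as markers of microglia, and P2RY12 protein is known to decline in strongly activated cells.

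The promoter sequences of 3 genes are shown because they belong to members whose levels are compared below: P2ry12 and P2ry13, neighbours on chromosome 3 whose levels were the most highly correlated of any pair over the libraries, and Adora3, the adenosine receptor of the set. They are the 250 bases before the RefSeq transcript start (RefSeq, build GRCm38.p6), read 5′ to 3′ on the strand of the gene. Capitals mark matches on either strand to GAGGAA, the core of sites bound by the myeloid factor PU.1 (TTCCTC on the other strand), or to TGACTCA, the site of AP-1.
P2ry12, chr3:59262986-59263235, minus strand: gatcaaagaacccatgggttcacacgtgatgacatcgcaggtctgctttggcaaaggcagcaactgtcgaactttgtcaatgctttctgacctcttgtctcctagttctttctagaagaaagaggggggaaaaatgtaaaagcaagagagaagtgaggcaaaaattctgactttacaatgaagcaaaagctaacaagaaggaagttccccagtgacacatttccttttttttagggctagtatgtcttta
P2ry13, chr3:59210883-59211132, minus strand: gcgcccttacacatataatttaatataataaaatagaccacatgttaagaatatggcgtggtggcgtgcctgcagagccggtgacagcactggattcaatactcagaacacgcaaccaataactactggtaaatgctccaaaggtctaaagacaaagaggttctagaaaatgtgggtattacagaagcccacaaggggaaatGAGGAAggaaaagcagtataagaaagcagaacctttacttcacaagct
Adora3, chr3:105904171-105904420, plus strand: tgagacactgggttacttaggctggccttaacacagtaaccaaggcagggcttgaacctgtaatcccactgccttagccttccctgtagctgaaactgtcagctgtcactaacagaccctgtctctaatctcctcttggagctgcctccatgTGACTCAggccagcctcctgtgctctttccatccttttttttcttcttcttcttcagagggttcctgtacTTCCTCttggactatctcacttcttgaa

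The P2ry12 window held no match. P2ry13 had GAGGAA beginning 48 bases before the start, and Adora3 had TTCCTC at 28 and TGACTCA at 98 bases before it. RefSeq promoter windows were matched for 8 of the 10 genes, 13 windows in all, 4 of them alternative and partly overlapping starts of P2ry14. GAGGAA was in 4 of the 8 genes and 7 of the 13 windows, of which 4 are P2ry14's and 2 of those hold the same site, and in 23.3% of 32851 windows of the same length. TGACTCA was in 3 of the 8 genes and 3 of the 13 windows, and in 4.46% of all windows, and the composite site of PU.1 and IRF factors (GGAA, 2 bases of any kind, then GAAA), which shares the letters GGAA with the PU.1 core, was in 0 of the 13 and 2.3% of all. Both strands were searched for each. These are counts of letters in a short window and say nothing of binding.

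The library of LPC_Ipsil replicate 3 stood apart from its group. The tissue held myelin transcripts, with Mbp at 5158 to 9633 CPM (counts scaled to the size of the library) and Mog at 189 to 375 CPM over the 15 libraries. Library totals ran from 14896445 to 20916606 counts, of which the 10 genes took 2168 to 9769. On the leading principal component (29.5% of the variance) LPC_Ipsil replicates 1 and 2 lay at 81.6 and 54.3, the LNIO_Ipsil libraries between 15.02 and 37.3, and LPC_Ipsil replicate 3 at -11.5, within the range of the sham and contralateral libraries (-30.1 to 2.91). The 9 genes shared by myeloid cells (Csf1r, Itgam, Itgb2, Aif1, Tyrobp, Fcer1g, Ptprc, Spi1, Laptm5), averaged as log2 CPM, stood at 7.04, 6.23 and 3.68 in the 3 LPC_Ipsil libraries and at 3.32, 3.06 and 3.01 in the sham libraries. The LNIO_Ipsil libraries had 4.99, 5.59 and 5.24, and the contralateral libraries 3.20 to 4.10, with LPC_Contra replicate 2 highest. The results on LPC_Ipsil are therefore given with and without its replicate 3. That library was picked by levels of myeloid genes, with which most members varied. Leaving it out tends to raise their fold changes and narrow their spread. Calls and p-values without it are therefore descriptions and no separate support.

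Per length of transcript, P2ry12 was the most abundant of the genes in every group. In the sham tissue it stood at 25.6 ± 4.31 FPKM (fragments per kilobase of transcript, scaled to depth, from the authors' table; mean ± SD, n = 3), 52.5% of the sum over the 10 genes. Gpr34 followed at 8.45 ± 1.76 and P2ry13 at 5.82 ± 0.63 FPKM, and the ranges of these 3 did not overlap. Entpd1 (2.29 ± 0.25), P2rx4 (2.18 ± 0.24) and P2rx7 (2.04 ± 0.46) could not be told apart by their ranges, nor could P2ry6 (0.960 ± 0.14) and Nt5e (0.904 ± 0.34), nor Adora3 (0.259 ± 0.11) and P2ry14 (0.140 ± 0.057). The order in the injured tissue differed from sham mainly for P2ry6. It was the seventh gene in sham tissue and the fourth in LPC_Ipsil (6.37 ± 4.65 FPKM) and in LNIO_Ipsil (3.80 ± 1.77 FPKM), where its range overlapped that of Entpd1, the next gene. The means of P2rx7 and P2rx4 changed places in both injured groups, and those of Adora3 and Nt5e in LPC_Ipsil, with ranges that overlapped. P2ry12 remained at 48.7% and 49.3% of the sum in the 2 injured groups.

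**Figure D1:**
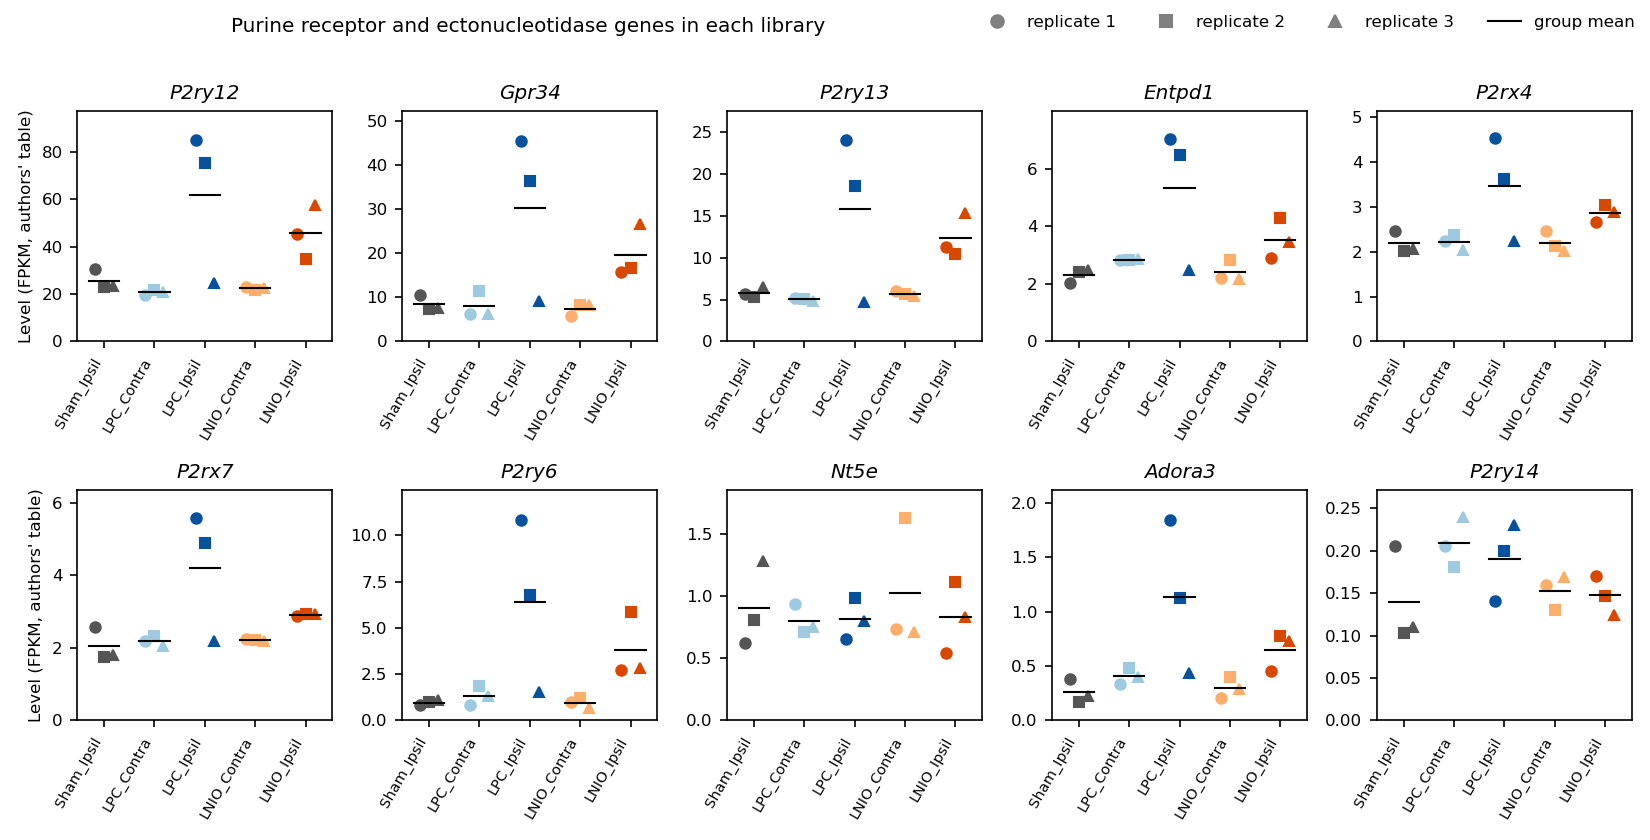
Level of each gene in FPKM (linear axis from 0, authors' table) in the 15 libraries; circles, squares and triangles are replicates 1, 2 and 3, and the line is the mean of the group. In 8 panels replicates 1 and 2 of LPC_Ipsil lie above all sham libraries while replicate 3 lies within or near the sham range, and all LNIO_Ipsil libraries lie above all sham libraries; Nt5e and P2ry14 show neither.

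The LPC site was compared with the saline site to ask how the purine genes differed after a myelin-directed injury. No loss of myelin transcripts was detected there. Of 4 myelin markers, edgeR and DESeq2 called 0, and their median log2 fold change was 0.33. Of the 10 genes, 6 rose in LPC_Ipsil against Sham_Ipsil and 0 fell at a Benjamini-Hochberg adjusted p under 0.05 over all tested genes (edgeR quasi-likelihood test), where 5.19% of the tested genes were called, 4.19% higher. The 6 were P2ry12, P2ry6, P2rx7, Gpr34, Entpd1 and Adora3, and the median log2 fold change of the 10 was 1.25 against 0.01 over all tested genes. The count rested on single libraries. It was 0 without any 1 of the 3 sham libraries or without LPC_Ipsil replicate 1 or 2. In each of those fits at most 1 of all tested genes was called, so the loss is not particular to the members. The count was 3 without LNIO_Contra replicate 3 (647 of 17131 genes called) and 8 without LPC_Ipsil replicate 3 (9.62% of tested genes called). DESeq2 called 8 (9% of tested genes), and limma on FPKM called 0 (3 of 16795 genes). edgeR called 0 with only these groups in the model (0% of tested genes). With the replicate number as a block it called 4 (652 of 16795 genes). In bulk tissue, more cells of a type and more RNA per cell cannot be told apart.

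Among the receptors for ADP, P2ry12 stood at 82.1, 62.6 and 63.5 CPM in the sham libraries, at 236, 202 and 66.0 in LPC_Ipsil and at 125, 94.9 and 148 in LNIO_Ipsil. Its first 2 LPC_Ipsil libraries lay well above every sham library, the third lay within the sham range, and the LNIO_Ipsil libraries lay above all sham libraries. The log2 fold change in LPC_Ipsil was 1.28 ± 0.33 (SE; edgeR adjusted p = 0.0403), and 1.66 without LPC_Ipsil replicate 3 (adjusted p = 1.7e-05). The latter p-value, like others without that library, follows from leaving out a library with low levels. P2ry13, its neighbour in the genome, had 15.1, 14.3 and 17.6 CPM in sham, 66.2, 49.1 and 12.5 in LPC_Ipsil and 31.0, 28.1 and 38.9 in LNIO_Ipsil. LPC_Ipsil replicate 3 fell below all 3 sham libraries for this gene. P2ry13 did not pass in LPC_Ipsil (1.44 ± 0.39, edgeR adjusted p = 0.0513) and did without that library (1.88, adjusted p = 5.5e-06).

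P2ry6, the UDP receptor, had the largest fold change of the set. It was at 2.45, 3.04 and 3.37 CPM in sham, 34.0, 20.6 and 4.60 in LPC_Ipsil and 8.58, 17.96 and 8.23 in LNIO_Ipsil. Every injured library lay above every sham library, LPC_Ipsil replicate 3 included. In LPC_Ipsil it rose by a log2 fold change of 2.73 ± 0.57 (edgeR adjusted p = 0.0243), and by 3.20 without replicate 3. P2ry14, the receptor for UDP-sugars, was a low gene in all groups, with 18 to 49 counts per library. It had 2.39, 1.22 and 1.31 CPM in sham, 1.69, 2.32 and 2.66 in LPC_Ipsil and 2.06, 1.72 and 1.39 in LNIO_Ipsil, and all groups overlapped. At this depth no change was detectable for P2ry14 in LPC_Ipsil (0.44 ± 0.31, edgeR adjusted p = 0.472).

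The ATP-gated channels stood close together in sham tissue. P2rx7, the channel of the inflammasome pathway, had 16.1, 11.2 and 11.4 CPM in sham, 36.3, 30.5 and 13.5 in LPC_Ipsil and 18.7, 18.5 and 17.6 in LNIO_Ipsil. Again LPC_Ipsil replicate 3 lay among the sham libraries. P2rx7 rose in LPC_Ipsil by 1.05 ± 0.26 on the log2 scale (edgeR adjusted p = 0.0313; 1.37 without replicate 3). P2rx4, known from spinal microglia after nerve injury, had 18.2, 15.2 and 15.5 CPM in sham, 34.7, 26.6 and 16.3 in LPC_Ipsil and 20.3, 22.7 and 20.4 in LNIO_Ipsil. Its log2 fold change of 0.67 ± 0.20 in LPC_Ipsil did not pass (edgeR adjusted p = 0.0727), though it did without replicate 3 (0.91, adjusted p = 0.00103).

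Gpr34, which senses a lipid exposed or released by damaged cells, had 23.1, 16.5 and 16.7 CPM in sham, 104, 79.8 and 19.9 in LPC_Ipsil and 36.0, 37.0 and 56.4 in LNIO_Ipsil. The first 2 LPC_Ipsil libraries and all LNIO_Ipsil libraries exceeded the sham libraries. Gpr34 rose in LPC_Ipsil by 1.85 ± 0.45 (log2; edgeR adjusted p = 0.0350), and by 2.29 without replicate 3.

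The 2 enzymes of the path from ATP to adenosine differed in their values. Entpd1, which encodes CD39, had 11.8, 14.3 and 14.7 CPM in sham, 42.7, 37.9 and 14.5 in LPC_Ipsil and 17.6, 25.4 and 19.4 in LNIO_Ipsil. Entpd1 rose in LPC_Ipsil by 1.22 ± 0.29 (log2; edgeR adjusted p = 0.0283; 1.56 without replicate 3). Nt5e, which encodes CD73, had 5.68, 7.44 and 11.8 CPM in sham, 6.16, 8.88 and 7.20 in LPC_Ipsil and 5.12, 10.2 and 7.24 in LNIO_Ipsil. The groups overlapped, and its log2 fold change in LPC_Ipsil was -0.16 ± 0.34 (edgeR adjusted p = 0.848). The difference between the 2 enzymes was not tested. Adora3, the adenosine receptor, was low, with 1.49, 0.676 and 0.905 CPM in sham, 7.48, 4.39 and 1.69 in LPC_Ipsil and 1.84, 3.06 and 2.73 in LNIO_Ipsil. As for P2ry6, every injured library exceeded every sham library, on 10 to 25 counts in sham and 28 to 124 in LPC_Ipsil. Adora3 rose in LPC_Ipsil by 2.13 ± 0.47 (log2; edgeR adjusted p = 0.0245; 2.52 without replicate 3). P2ry6 and Adora3 were the only genes of the set whose LPC_Ipsil and sham ranges did not overlap, with LPC_Ipsil higher, as did 14% of all tested genes.

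After L-NIO, most members stood above sham in all 3 libraries. For 8 of the 10 genes every LNIO_Ipsil library exceeded every sham library, where 10.1% of all tested genes did, and for 0 of the 10 every one was lower (7.86% of all). The median log2 fold change of the 10 was 0.72 against -0.02 over all tested genes. With all libraries edgeR called 0 of the 10 and 0% of all tested genes, with 5 of the 10 at an unadjusted p under 0.05 (8.87% of all genes). DESeq2 called 1, P2ry6 (1.41% of tested genes), and limma on FPKM called 0 (1 of 16795 genes). The values were 1.97 ± 0.56 for P2ry6 (edgeR adjusted p = 0.272), 1.30 ± 0.47 for Adora3, 1.20 ± 0.45 for Gpr34 and 1.06 ± 0.39 for P2ry13 on the log2 scale. P2ry12 had 0.82 ± 0.33, Entpd1 0.61 ± 0.29, P2rx7 0.50 ± 0.26 and P2rx4 0.37 ± 0.20. P2ry14 (0.07 ± 0.31) and Nt5e (-0.14 ± 0.34) again overlapped with sham.

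The call in LNIO_Ipsil depended on which libraries entered the model. All libraries of a model share 1 estimate of the spread per gene, and the genes tested also change with the libraries. Why the calls differed was not tested. Without LPC_Ipsil replicate 3, which is not part of the comparison, 5 of the 10 genes were called higher (2.32% of tested genes): P2ry12 (0.84, edgeR adjusted p = 0.00855), P2ry13 (1.07, 0.00135), P2ry6 (1.98, 0.00648), Gpr34 (1.21, 0.0147) and Entpd1 (0.62, 0.0472). With only the sham and LNIO_Ipsil libraries in the model, P2ry13 (adjusted p = 0.0100), P2ry6 (0.0160) and Gpr34 (0.0257) were called (2.33% of tested genes).

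**Figure D2:**
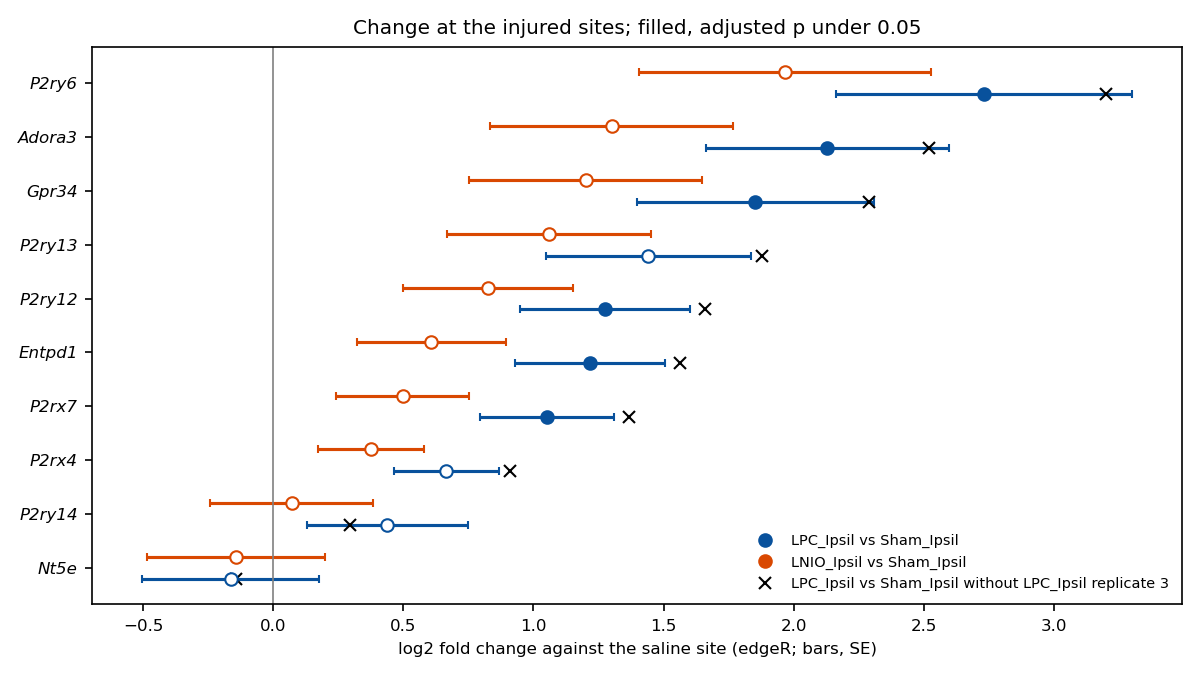
Log2 fold change of each gene against the saline site (horizontal axis, edgeR, all 15 libraries) in LPC_Ipsil (blue) and LNIO_Ipsil (orange); bars are SE, filled points passed at an adjusted p under 0.05, and crosses are LPC_Ipsil without its replicate 3. P2ry6 has the largest value in each (2.73 and 1.97) and Nt5e the lowest (-0.16 and -0.14); both comparisons share the sham libraries, so their likeness is no separate evidence.

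The 2 injuries were also set against each other directly. LNIO_Ipsil was lower than LPC_Ipsil for 9 of the 10 genes by fold change (median log2 -0.50, over all tested genes -0.04), and all ranges overlapped (7.61% of all tested genes were lower in every LNIO_Ipsil library and 6.07% higher). edgeR called 0 of the 10 (0% of tested genes), DESeq2 called 0 (0.107%) and limma on FPKM called 0 (1 or 2 of 16795 genes, by pseudocount). Of the 10, 2 had an unadjusted p under 0.05 by edgeR, as had 8.39% of all tested genes. Adora3 had the largest difference (log2 -0.83 ± 0.43), followed by P2ry6 (-0.77 ± 0.52) and Gpr34 (-0.65 ± 0.44). Without LPC_Ipsil replicate 3, 4 genes were called lower in LNIO_Ipsil (1.41% of tested genes): Entpd1 (-0.94, edgeR adjusted p = 0.0189), P2rx7 (-0.86, 0.0237), P2ry13 (-0.80, 0.0337) and P2ry12 (-0.82, 0.0365). The 9 myeloid genes had a median log2 difference of -0.97 between the injuries, with 0 of 9 called with all libraries by edgeR (1 at an unadjusted p under 0.05) or DESeq2 and 5 of 9 called lower without that library.

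The contralateral side was compared with each injured side and with sham. P2ry12 had 53.8, 57.6 and 58.5 CPM in LPC_Contra and 65.1, 58.1 and 61.9 in LNIO_Contra. Each LPC_Ipsil library exceeded each LPC_Contra library for P2ry12 alone of the set (7.06% of all tested genes did so, and 6.59% were lower in each). edgeR called 0 of the 10 between the LPC sides (0% of tested genes). Of the 10, 8 had an unadjusted p under 0.05, as had 12.1% of all tested genes. DESeq2 called 6 (4.17% of tested genes) and limma on FPKM called 0 (0 of 16795 genes). P2ry12 had a log2 difference of 1.57 ± 0.33 (edgeR adjusted p = 0.0629), P2ry6 2.25 ± 0.55 and Gpr34 1.93 ± 0.46. Without LPC_Ipsil replicate 3, edgeR called 8 genes higher on the injured side (5.55% of tested genes), all but P2ry14 and Nt5e. LPC_Contra replicate 2, the contralateral library with the highest level of the 9 myeloid genes, was the highest of its group for P2ry6 (5.66 CPM against 2.66 and 4.08), Gpr34, Adora3, P2rx4 and P2rx7, lay between the others for P2ry12 and P2ry13 and was the lowest for Entpd1, Nt5e and P2ry14.

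Between the L-NIO sides, 8 of the 10 genes were higher in every injured library than in every contralateral one (7.91% of all tested genes). edgeR called 0 of the 10 with all libraries (0% of tested genes). Of the 10, 5 had an unadjusted p under 0.05, as had 6.08% of all tested genes. DESeq2 called P2ry6 (1.07% of tested genes), and limma on FPKM called 0 (0 of 16795 genes). The log2 differences were 1.96 ± 0.56 for P2ry6 (edgeR adjusted p = 0.358), 1.38 ± 0.45 for Gpr34, 1.08 ± 0.46 for Adora3, 1.07 ± 0.39 for P2ry13 and 0.99 ± 0.33 for P2ry12. Same-numbered libraries of the 2 L-NIO sides deviated together, so a paired fit was made as well. No such fit was made for the LPC sides, although r for their replicate 3 (0.332) exceeded that for L-NIO (0.268). The call counts of the 2 models are therefore not comparable on this fit. With the replicate number as a block and only these groups in the model, 5 genes were called (4.22% of tested genes): Gpr34 (1.37, edgeR adjusted p = 6.3e-06), P2ry6 (1.93, 3.0e-05), P2ry12 (0.98, 7.3e-05), P2ry13 (1.07, 8.7e-05) and Entpd1 (0.53, 0.0236). Without the block but with only these groups, 4 were called (2.22% of tested genes), and without LPC_Ipsil replicate 3 also 4 (2.22%).

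Neither contralateral group was called against sham for any of the 10 genes (edgeR, DESeq2 and limma each 0). edgeR called 0.00595% of tested genes for LPC_Contra and 0% for LNIO_Contra. DESeq2 called 0.167% and 0.0119%, and limma on FPKM 1 of 16795 genes for each. At an unadjusted p under 0.05 there were 0 of the 10 in each, against 9.67% and 2.72% of all tested genes. P2ry12 had log2 differences of -0.29 ± 0.33 and -0.17 ± 0.33 from sham. The LPC_Contra libraries lay below all sham libraries for P2ry12 and P2ry13 (8.07% of all tested genes) and above them for Entpd1 (7.06%). In LNIO_Contra all 10 ranges overlapped with sham, where 5.01% of all genes were higher and 5.13% lower in every library. The interaction of injury and side asks whether the difference between sides was unequal in the 2 models. It was not called for any of the 10 (edgeR, DESeq2 and limma each 0, and 0 of all tested genes by each). It had 0 of the 10 at an unadjusted p under 0.05 (1.02% of all tested genes). For P2ry12 it was -0.57 ± 0.46 on the log2 scale, L-NIO minus LPC.

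Microglial and other myeloid genes moved with the set, so each member was also read against them in its own library. All 9 of the shared myeloid genes rose in LPC_Ipsil against sham (median log2 3.16), as did 8 of 8 tested genes of resting microglia (among them Tmem119, Sall1, Siglech, Cx3cr1, Olfml3, Slco2b1, Selplg; median 1.79) and 9 of 12 genes of damage-associated microglia (median 3.57). Over all tested genes, 4.19% were called higher in LPC_Ipsil. Each of the 3 list counts was 0 without any 1 of the 3 sham libraries or without LPC_Ipsil replicate 1 or 2. At most 1 of all tested genes was called in each of those fits. In LNIO_Ipsil edgeR called 0 of these 3 lists against sham, with medians of 2.10, 1.09 and 2.62. At an unadjusted p under 0.05 there were 9 of 9, 7 of 8 and 10 of 12 (8.87% of all tested genes). DESeq2 called 6, 2 and 8 higher (1.41% of tested genes called). Csf1r, the receptor that microglia need to survive, stood at 77.2 ± 5.88 CPM in sham and 409 ± 273 in LPC_Ipsil, and Trem2, a lipid receptor of activated microglia, at 10.4 ± 4.67 and 124 ± 107. Aif1, which encodes the microglial protein IBA1, had 4.09 ± 1.04 and 16.2 ± 10.2 CPM, and Tmem119, a gene of resting microglia, 16.0 ± 1.84 and 51.9 ± 38.0. Summed markers of border macrophages were 15.9 to 28.1 CPM in sham, 67.9, 63.6 and 19.2 in LPC_Ipsil and 29.5 to 42.3 in LNIO_Ipsil, with 1 of 7 called in LPC_Ipsil (Stab1) and none of the list at 0 in any group. Summed monocyte markers overlapped between sham (44.9 to 80.6 CPM) and both injured groups (54.6 to 75.7). Neutrophil markers summed to under 1 CPM in each library (0.104 to 0.966), mast cell markers to 0.472 or less with all 6 at 0 in LPC_Contra, and platelet markers, whose cells also carry P2RY12, to 2.03 to 4.34. Markers of some other cell types differed from sham in LPC_Ipsil too. Summed astrocyte markers were 1192 to 1610 CPM against 1010 to 1093 in sham (1 of 4 called, Aldh1l1). Endothelial markers were 116 to 148 against 83.9 to 90.4, and pericyte and smooth muscle markers 117.2 to 165 against 100.3 to 116.8. edgeR called 0 of 6 in each of these 2 lists (3 and 1 at an unadjusted p under 0.05, 1 and 0 by DESeq2). Summed neuronal markers were lower, at 2349 to 2905 against 3205 to 4167 CPM (1 of 4 called, Nefl). None of these sums overlapped with sham, while those of myelin (14492 to 22920 against 11693 to 18333 CPM), fibroblast, striatal neuron and T cell markers did. Among single tested genes, 14% were higher and 13.5% lower than sham in every LPC_Ipsil library. In LPC_Contra the endothelial (95.9 to 208 CPM) and pericyte and smooth muscle sums (129 to 189) overlapped with LPC_Ipsil. Its astrocyte (1015 to 1153 CPM) and neuronal sums (3050 to 3682) did not. What part these cell types had in the changes of the members was not tested.

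Taken against the 9 myeloid genes, the members were lower in the injured tissue, as were nearly all genes of the tissue. The measure was the log2 CPM of a member minus the mean log2 CPM of the 9 genes in the same library. P2ry12 stood 3.04, 2.91 and 2.97 above that mean in sham, 0.84, 1.43 and 2.37 in LPC_Ipsil and 1.98, 0.98 and 1.97 in LNIO_Ipsil, so both injured groups lay below all sham libraries. The mean differences from sham were -1.43 in LPC_Ipsil and -1.33 in LNIO_Ipsil (exact permutation test, two-sided, p = 0.1 for each, the smallest that 3 against 3 libraries allow, and 0.188 adjusted over 30 tests). All 10 members had a lower mean than sham in each injury, as had 99.2% (LPC_Ipsil) and 99% (LNIO_Ipsil) of all tested genes. The groups did not overlap, with the injured group lower, for 7 members in LPC_Ipsil (74.2% of all genes) and 9 in LNIO_Ipsil (94.7%), so these counts are near the background and say nothing particular to the members. No such test could reach a p under 0.05. Without LPC_Ipsil replicate 3 the difference was -1.84 for P2ry12 and -0.34 for P2ry6, and 9 members did not overlap (98% of all genes, with 99.3% lower by their mean).

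P2ry6 differed least of the members from sham on this measure. It differed from sham by -0.19 in LPC_Ipsil (exact permutation p = 0.6) and -0.27 in LNIO_Ipsil (exact permutation p = 0.5), and its groups overlapped. Adora3 (-0.57 and -0.81) and Gpr34 (-0.95 and -0.96) came next, and P2ry13 (-1.38 and -1.09), Entpd1 (-1.44 and -1.55), P2rx7 (-1.57 and -1.63) and P2rx4 (-1.91 and -1.77) differed more. Nt5e (-2.63 and -2.27) and P2ry14 (-2.04 and -2.02), whose own levels overlapped with sham, differed most. Between LNIO_Ipsil and LPC_Ipsil the members differed on this measure by -0.24 to 0.36, and all ranges overlapped. Of the 10, 5 were lower in LNIO_Ipsil by their mean, against 11.4% of all genes. This rested on LPC_Ipsil replicate 3: without it 0 members were lower (1.44% of all genes), and every LNIO_Ipsil library lay above both remaining LPC_Ipsil libraries for P2ry14, P2rx4, Entpd1 and Nt5e, as for 89.6% of all genes. The direction depends on the reference for some members. Against the 8 genes of resting microglia, 8 of 10 members were lower than sham in LPC_Ipsil and 7 of 10 in LNIO_Ipsil. Those 8 genes themselves had median log2 fold changes of 1.79 and 1.09 against sham. The share of all genes lower on this reference was not computed, so these counts are not read as particular to the members. On that reference P2ry12 was at -0.65 and -0.34, while P2ry6 was higher by 0.59 and 0.73, Adora3 higher by 0.21 and 0.18, and Gpr34 at -0.17 and 0.03.

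**Figure D3:**
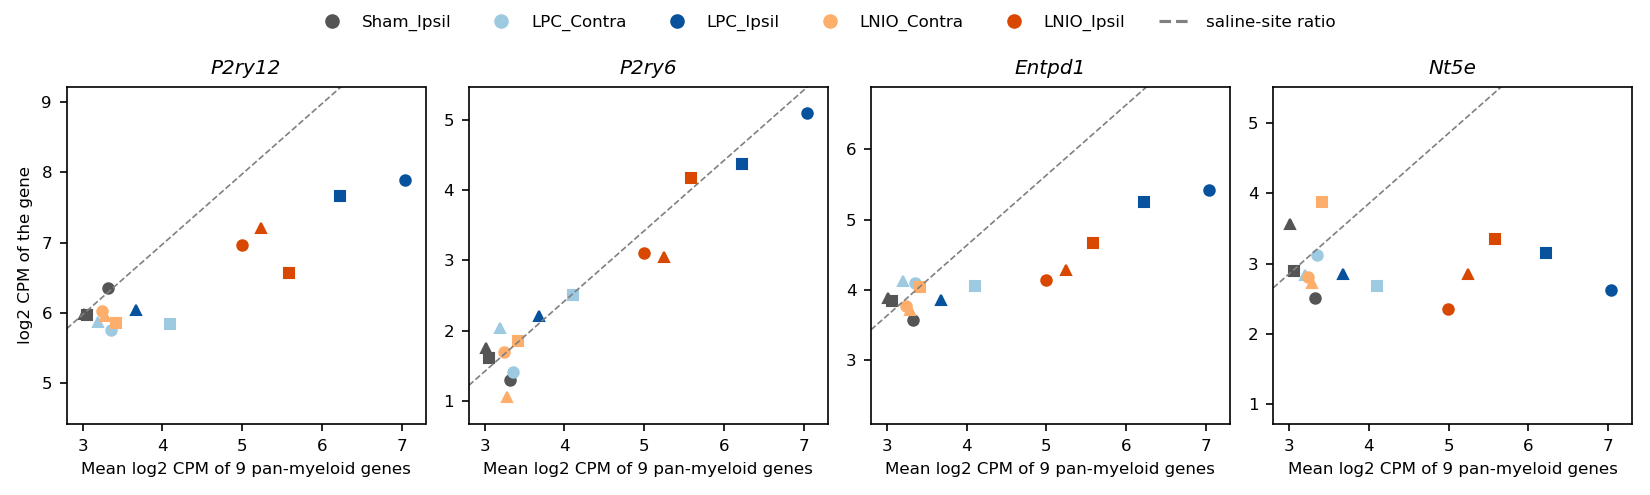
Log2 CPM of 4 genes (vertical axes) against the mean log2 CPM of 9 shared myeloid genes (horizontal axis) in the 15 libraries; colours are groups, shapes are replicates, and the dashed line keeps the ratio of the saline site. P2ry6 stays near the line, P2ry12 and Entpd1 rise less steeply than it, and Nt5e does not follow the horizontal axis.

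**Figure D4:**
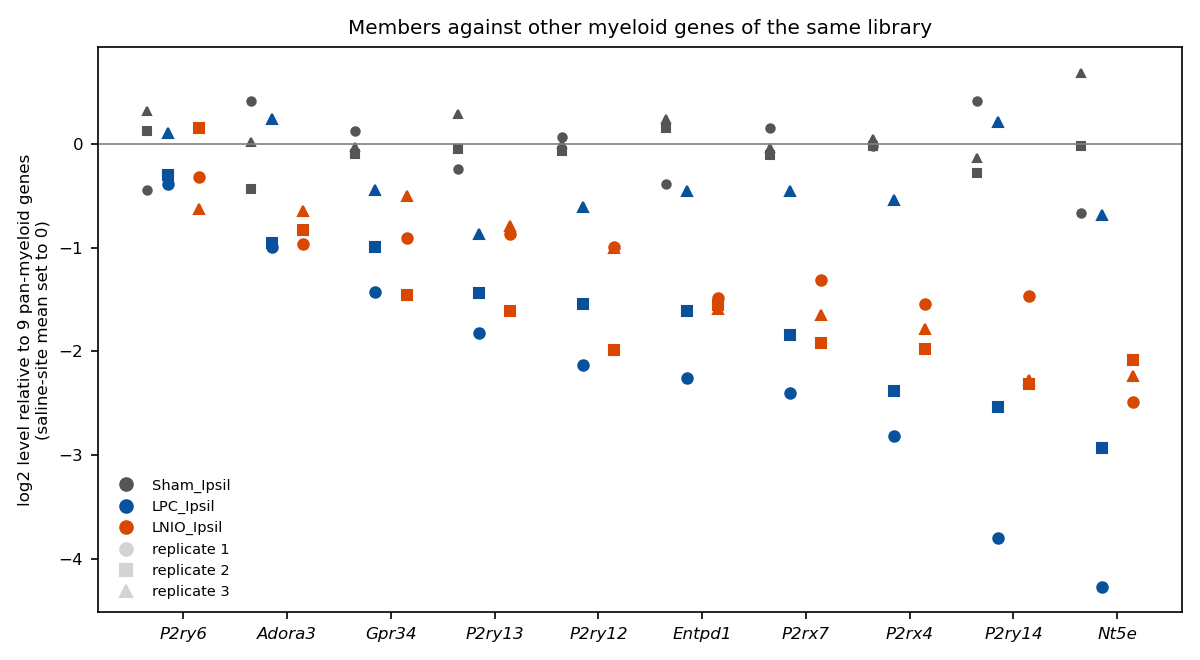
Log2 level of each member relative to 9 shared myeloid genes of the same library (vertical axis, mean of the saline site set to 0) in the sham, LPC_Ipsil and LNIO_Ipsil libraries. LPC_Ipsil replicate 3 (blue triangles) lies nearer to sham than the other 2 LPC_Ipsil libraries for all 10 members, and P2ry6 stays near 0 in all libraries.

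The members fell into 2 kinds by how they varied over the 15 libraries. Whether the label of microglial genes holds equally for both was not tested. Among P2ry12, P2ry13, P2ry6, P2rx4, P2rx7, Gpr34, Entpd1 and Adora3, the 28 pairwise Pearson correlations of log2 CPM ran from 0.816 to 0.971, highest for P2ry12 with P2ry13. The 17 pairs that include P2ry14 or Nt5e ran from -0.385 to 0.138. These are descriptions over 15 libraries that share group, depth and the injured sites. Correlations in bulk tissue do not show which cells carried a gene, and P2ry14 had only 18 to 49 counts per library. P2ry14 and Nt5e are therefore named here by symbol, and their cell of origin was not tested.

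The genes outside the set with the most similar pattern differed by member. P2ry12 was closest to Asah1, a lysosomal ceramidase gene (r = 0.976), Fcgr2b and Pde3b, and P2ry13 to Hpgds, a prostaglandin D synthase gene (0.974), Il1rl1 and Bcl2a1d. P2ry6 was closest to Unc93b1, a chaperone of nucleic acid-sensing Toll-like receptors (0.980), Cd37 and Psd4, and Gpr34 had Serinc3 (0.980) and Plek (0.979) among its closest. P2rx4 had Hmox1, the heme oxygenase gene (0.976), and Olfml3 (0.965) among its closest, and P2rx7 had Olfml3 (0.966) and Epb41l2 (0.961). Entpd1 had Pik3r5 (0.974), Vsir and Itgb5, and Adora3 had Lcp1 (0.971), Wdfy4 and Tal1. For P2ry14 the closest were Trim36 (0.809), Mobp, a myelin protein gene, and Fbxo28, and for Nt5e they were the neuronal genes Cntn5 (0.876), Reln and Pcdhb17. Each r is Pearson's over the 15 libraries and among the 3 highest over the other tested genes, with predicted genes left out, and carries no test.

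Other purine genes of the tissue were counted in the same way. Among the other P2Y receptors and Gpr17, 2 of 3 tested genes rose in LPC_Ipsil against sham (4.19% of all tested genes were called higher). P2ry2, a receptor for ATP and UTP, had 0.333 ± 0.029 CPM in sham and 1.33 ± 0.37 in LPC_Ipsil (log2 1.97 ± 0.48, edgeR adjusted p = 0.0297). Gpr17, a receptor of oligodendrocyte precursors, had a log2 fold change of 0.90 ± 0.25 (0.0480). Of the other P2X channels 0 of 4 passed by edgeR (1 at an unadjusted p under 0.05, 0 by DESeq2), of which P2rx6 was the most abundant per length. Of the other adenosine receptors 0 of 3 passed (0 at an unadjusted p under 0.05, 0 by DESeq2), and Adora2a, the most abundant per length over all libraries though not in LNIO_Ipsil, ran from 14.8 to 145 CPM within sham alone, where summed markers of striatal neurons, which carry it, ran from 291 to 1773 CPM. Of the other ectonucleotidases 0 of 7 passed (1 at an unadjusted p under 0.05, 0 by DESeq2), with Enpp2, which encodes autotaxin, the most abundant at 142 FPKM in sham. Of genes for nucleotide release and adenosine handling 0 of 8 passed (1 at an unadjusted p under 0.05, 1 by DESeq2), and Panx2 was the most abundant. Without LPC_Ipsil replicate 3 these counts were 2, 0, 0, 0 and 2 (9.62% of tested genes called). The 2 of the P2Y list were 0 without any 1 of the sham libraries or without LPC_Ipsil replicate 1 or 2. At most 1 of all tested genes was called in each of those fits. In LNIO_Ipsil edgeR and DESeq2 called 0 of each list against sham. At an unadjusted p under 0.05 there were 0, 0, 0, 1 and 1 (8.87% of all tested genes, and 20.2% in LPC_Ipsil).

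Partners and effectors of the receptors did change in LPC_Ipsil, where 6 of 8 rose (median log2 1.99) and 4.19% of all tested genes were called higher. Pycard, the inflammasome adaptor, rose by 2.51 ± 0.51 (edgeR adjusted p = 0.0243), Pik3cg, a kinase downstream of Gi-coupled receptors, by 2.33 ± 0.51 (0.0247), Gsdmd, the pore protein of pyroptosis, by 1.87 ± 0.43 (0.0268), and Casp1, the inflammasome protease, by 2.11 ± 0.50 (0.0280). Gnai2, a Gi subunit, and Nlrp3 rose too. Kcnk13, the THIK-1 potassium channel of microglia, had 0.50 ± 0.26 (edgeR adjusted p = 0.300), and Il1b 1.69 ± 0.73 (0.208). The count was 7 of 8 without LPC_Ipsil replicate 3 (9.62% of tested genes called). It was 0 without any 1 of the sham libraries or without LPC_Ipsil replicate 1 or 2. At most 1 of all tested genes was called in each of those fits. In LNIO_Ipsil edgeR called 0 of the 8 against sham, with a median of 1.40. At an unadjusted p under 0.05 there were 5 (8.87% of all tested genes), and DESeq2 called 3 higher (1.41% of tested genes called).

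Some members share their place in the genome with other genes, and the strand setting of the counting is not given in the sources used here. The GENCODE annotation of the reference used here is of build GRCm38, another build than the one the study names. In it P2ry12, P2ry13 and P2ry14 lie within Med12l on the opposite strand. Exons of P2ry12 overlap those of Med12l, while exons of P2ry13 and P2ry14 do not. Gpr34 lies within Cask on the opposite strand without exon overlap, and Camkk2 neighbours P2rx4. On the same strand, Adora3 shares exons with Tmigd3, and P2rx7 overlaps the microRNA gene Mir8115 in an exon. Reads of such pairs may not have been told apart. Med12l had log2 fold changes of -0.24 ± 0.34 in LPC_Ipsil and -0.25 ± 0.34 in LNIO_Ipsil, Cask -0.01 ± 0.10 and -0.01 ± 0.10, and Camkk2 -0.31 ± 0.21 and -0.14 ± 0.21, and 0 of the 3 were called by edgeR (0 at an unadjusted p under 0.05) or DESeq2. Tmigd3 had 0 to 5 counts per library and was not tested, and the neighbour Gpr171 had 0 or 1 count.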

How the data were processed

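RNA of bulk corpus callosum was sequenced in paired ends on an Illumina NovaSeq after ribosomal depletion and poly(A) purification, per the labels' protocols. The submitters' processing notes name GRCm39 as a build, and HISAT2 2.2.1 and R 4.4.2 as tools. The program that counted reads, its use of strand and its annotation were not stated in them. The deposited count table holds whole read counts per gene symbol, and the authors' FPKM table holds the same genes scaled by length and depth. All columns were matched to libraries, with 0 left over.

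Counts were tested in edgeR 4.0.16 (R 4.3.3) with TMM scaling, filterByExpr by group (minimum count 10, total 15), robust quasi-likelihood fits over all 15 libraries, a mean per group and no block. Benjamini-Hochberg adjustment ran over all 16795 tested genes of a comparison. SE was taken as the absolute log2 fold change over the root of the F statistic, and CPM used TMM-scaled library sizes, with a prior count of 0.5 on the log2 scale. Relative levels were compared by exact permutation over libraries. The code was tested on simulated data. Alternatives were DESeq2 1.42.0, its size factors, no filter, a replicate block, only the groups compared, limma 3.58.1 on log2(FPKM + 0.1 or 1), and each library left out. Same-numbered LNIO_Ipsil and LNIO_Contra libraries deviated from their group means together (r = 0.595, 0.351 and 0.268) and so were treated as pairs in an added fit, although no label says that a number marks a mouse. For the LPC sides r was -0.019, 0.173 and 0.332, so their replicate 3 lay above the lowest L-NIO value. No paired fit with only the LPC sides was made. Between the other pairs of groups r ran from -0.130 to 0.156.

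The members and lists were chosen with earlier results of these data known. All members are named, with, per other purine list, up to 4 called genes of smallest adjusted p and the most abundant gene, all host and neighbour genes, and genes among the 3 most correlated per member, leaving out predicted genes. Csf1r, Aif1, Tmem119 and Trem2 are named as reference genes. Nlrp3, Il1b, Kcnk13, Stab1, Aldh1l1 and Nefl fall outside this rule and were chosen after their values were seen. Mbp, Mog and other genes named only as markers of a cell type fall outside it as well. Some genes that the rule selects are not reported here.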

Additional observations from a re-analysis of the deposited data

How the results depend on the processing

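The count of called members depended on the libraries and the test. For LPC_Ipsil against Sham_Ipsil, 6 with all libraries, it was 0 with only those groups, 0 by limma on log2(FPKM + 0.1), 0 on log2(FPKM + 1) and 0 to 8 over the omissions of 1 library; the replicate block left 4. For LNIO_Ipsil against Sham_Ipsil, 0 with all libraries, it was 3 with only those groups, 1 by DESeq2 and 0 to 5 over the omissions. LNIO_Ipsil against LPC_Ipsil ran from 0 to 4 over the omissions. The LPC sides had 6 by DESeq2 and 0 to 8 over the omissions. The L-NIO sides had 4 with only those groups, 1 by DESeq2, 5 with the replicate block and only those groups (an alternative chosen after the correlation of same-numbered libraries was seen) and 0 to 4 over the omissions. With the replicate block over all libraries, the counts of called members in the other 4 of these 5 comparisons were 0. Over all genes, LPC_Ipsil against Sham_Ipsil called 871, against 524 without the filter on low counts, 1512 by DESeq2, 3 by limma with either pseudocount, 0 with only those groups and 0 to 1646 over the omissions. The higher ends of all these ranges came from omitting LPC_Ipsil replicate 3. The number of members lower than LPC_Ipsil in LNIO_Ipsil relative to myeloid genes, 5, was 1 against resting microglia genes and 0 (without LPC_Ipsil replicate 3) to 9 (without LPC_Ipsil replicate 1) over the omissions. The cause was not tested, except that omissions and smaller models change the spread and the genes tested.

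Fold changes of Nt5e, P2ry14 and P2ry13 changed sign under some settings, and no value with the changed sign was called. Nt5e between LNIO_Ipsil and LPC_Ipsil was -0.0018 with the replicate block, -0.0029 on log2(FPKM + 0.1) and -0.25 to 0.26 over the omissions. Between the LPC sides Nt5e was 0.013 and 0.0084 on log2(FPKM + 0.1) and log2(FPKM + 1), and -0.15 to 0.14 over the omissions. Against sham Nt5e ran from -0.37 to 0.13 in LPC_Ipsil and -0.41 to 0.17 in LNIO_Ipsil, and between the L-NIO sides from -0.59 to 0.15. P2ry14 ran from -0.13 to 0.46 in LNIO_Ipsil against sham and -0.23 to 0.063 between the L-NIO sides, and P2ry13 from -0.80 (called, without LPC_Ipsil replicate 3) to 0.081 between the injuries. Counts of 10 to 49 per library limit what can be seen for P2ry14 and for Adora3 in sham.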
